A study of Mus musculus with 6 samples.

Results

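Genes that identify blood stem cells and early progenitors are described here in mouse bone marrow with endogenous or overexpressed microRNA-125a (miR-125a). They are Ly6a, Kit, Flt3, Procr, Robo4, Fgd5, Mecom, Hlf and Meis1, chosen by symbol, and all 9 were found among the 55450 genes of the count table through the GENCODE M21 annotation. In the study, stem cells sorted as LSK/SLAM were made to overexpress miR-125a and went into lethally irradiated recipients. After 12 weeks, 2000 marrow cells free of lineage markers and positive for Sca-1 were sorted for each library, and their RNA was sequenced. All samples were C57BL6/SJL, and the labels give 2 groups, endogenous and overexpressed miR-125a, of 3 libraries each. The endogenous samples carry titles beginning with EV, which the labels do not spell out. The sources used here do not give the age of the mice, the vector, its promoter or the share of recipient cells in the sort. Counts of endogenous replicates 1 and 3 and of overexpressed replicates 2 and 3 were analysed (n = 2 per group), and the other 2 libraries were not analysed here. Nothing says that replicates are separate animals, so p-values cover only the spread from library to library, which may be technical.

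Blood stem cells in mouse marrow lack the antigens of mature lineages and carry Sca-1, the product of Ly6a, and the receptor tyrosine kinase Kit on their surface. Flt3, a related receptor kinase, appears as stem cells become multipotent and lymphoid-primed progenitors. Procr, Robo4 and Fgd5 are markers of long-term stem cells that endothelial cells also use, and Mecom, Hlf and Meis1 encode transcription factors that maintain the stem cell state. MicroRNAs of the miR-125 family are abundant in stem cells and lower their target mRNAs by pairing of the seed with the 3' UTR.

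The seed of the overexpressed microRNA is shown first, since it defines the letters that a direct target would carry. Bases 2 to 8 of the mature strand (chromosome 17, 17830817 to 17830840, plus strand, RefSeq GRCm38.p6) are in capitals.
miR-125a-5p: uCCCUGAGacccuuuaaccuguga
The complement CTCAGGG and the match TCAGGGA, of the same length and shifted by 1 base so that both can overlap, were searched on the sense strand of the longest annotated 3' UTR of each gene. CTCAGGG was found in 0 of the 9 members, whose 3' UTRs ran from 385 bases (Ly6a) to 5687 bases (Meis1). Across all 21045 genes with an annotated 3' UTR, of median length 960 bases, 13.1% held it and 19.5% held either match. TCAGGGA occurred once among the members, in the 3' UTR of Fgd5 on chromosome 6 at 92075695 to 92075701 (mm10, plus strand), with the match in capitals.
Fgd5 match: attaattatgtTCAGGGAtttctttttct
A match of letters is a description and not a measured binding site, and no match says only that these letters are not in that UTR.

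Total counts ran from 654126 to 737431 per library. Mitochondrially encoded genes took 4.14% to 6.29% of counts in 3 libraries and 0.558% in overexpressed replicate 3. Genes for odorant, pheromone and trace-amine receptors, which serve smell and pheromone sensing, held 2.56 to 3.77 counts per kb of exon. These 1479 receptor genes are used below as a measured background: their mean density over the 4 libraries had a median of 1.93 counts per kb, and 95% of them did not exceed 8.3 counts per kb. Densities in counts per kb of exon compare levels between genes. Values in CPM, counts scaled to the library's total, compare 1 gene between libraries.

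Of the 9 genes, 7 lay at or below the 95% line of the receptor genes. Between 90.5% and 91% of all protein-coding genes also did, and their median was 1.89 counts per kb. A place under this line was thus common to most genes. Only Fgd5 and Flt3 exceeded the density of 95% of receptor genes, and the order of mean density was Fgd5 (26.9 counts per kb), Flt3 (14.9), Robo4 (5.38), Mecom (2.39), Hlf (1.46), Kit (1.21), Meis1 (0.997), Ly6a (0.622) and Procr (0.492). Fgd5 was denser than 99.1% of receptor genes and Flt3 denser than 97.6%. Robo4 stood above 89.8% of them and Mecom above 63%. Hlf, Kit, Meis1, Ly6a and Procr were below the receptor median. Each pair of neighbours in this order had overlapping ranges over the 4 libraries, and Procr and Ly6a rest on 4 and 3 counts. Without overexpressed replicate 2, only 1 member, Fgd5, remained above the 95% line recomputed on the other 3 libraries.

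**Figure D1:**
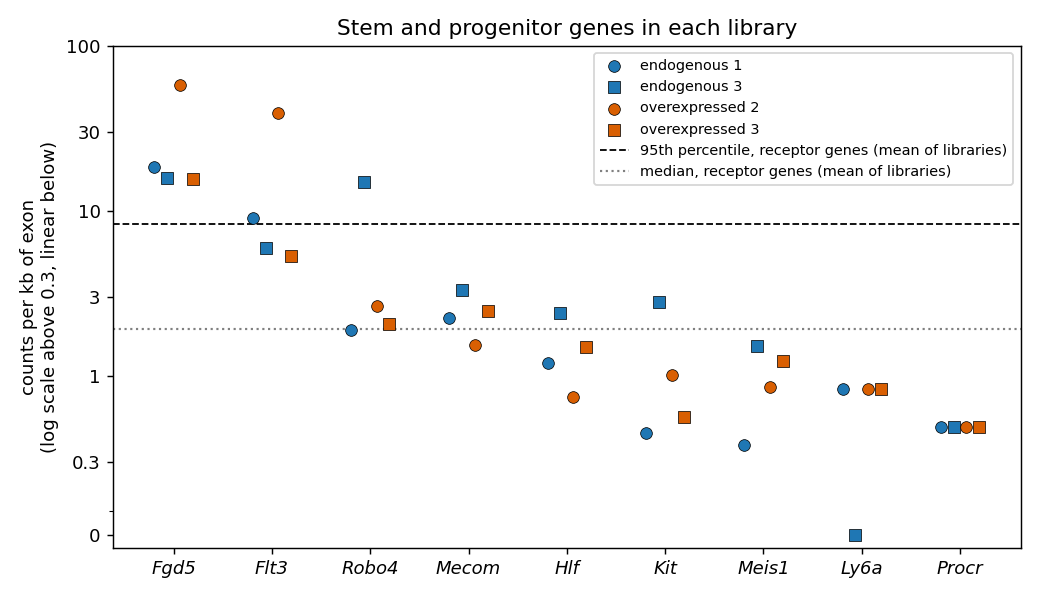
Counts per kb of exon (log axis above 0.3, linear below) of the 9 genes in each of the 4 libraries, with the median and the 95th percentile of the receptor genes' mean density as lines. Fgd5 lies above the 95% line in every library, Flt3 and Robo4 cross it in some, and the other 6 genes lie below it in all 4.

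The sorting marker Ly6a encodes Sca-1, the antigen that defined the gate. It had 1 count in endogenous replicate 1, 0 in endogenous replicate 3, and 1 in each of overexpressed replicates 2 and 3. The 3 counts in all correspond to 1.06 CPM with a 95% exact Poisson interval of 0.219 to 3.11 CPM, and the 0 in endogenous replicate 3 allows up to 3 counts. Intervals and limits here cover counting error only, since the libraries carry no stated molecular identifiers. At a mean of 0.622 counts per kb, Ly6a was denser than 14.2% of receptor genes and than 17.5% of all protein-coding genes. No fold is given because both groups were at or under 3 counts. The transcript of the gate's own marker was not separable from background at this depth, which says nothing of the protein on the cells that were sorted.

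Ly6a (chromosome 15, 74994877 to 74998031, minus strand) lies in a cluster of related genes whose reads can be shared. Of the 50-base stretches of its annotated transcripts, 81% occur in no transcript of another gene and 19% also occur in others, Ly6c1 and Ly6i among them. The genes flanking Ly6a lay below the 95% line, Ly6i at 4.97 and Ly6c1 at 1.04 counts per kb, against 0.622 for Ly6a. In endogenous 1 and 3 and then overexpressed 2 and 3, an order kept below wherever 4 values stand together, its close relative Ly6i had 6, 6, 5 and 6 counts and Ly6c1 had 0, 5, 1 and 1. The list of Ly6a relatives that was read does not hold the whole family. Of its 16 measured genes, 1 was above the 95% line. That gene was Ly6c2, a marker of monocytes and other myeloid cells, with 12, 107, 116 and 2 counts. Its high libraries, endogenous 3 and overexpressed 2, belong to different groups. Ly6e, a broadly expressed relative, had 61, 11, 9 and 12 counts (log2 fold -1.74 ± 0.91 SE, adjusted p = 0.845 by edgeR).

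Kit is the receptor for stem cell factor and is carried by stem cells and most early progenitors. Its counts were 4 and 25 with endogenous miR-125a and 9 and 5 with overexpression. That is 20.6 ± 20.5 CPM (SD, n = 2) against 9.59 ± 3.69 CPM. The groups overlap, with endogenous replicate 3 high and endogenous replicate 1 the lowest of all. Kit did not pass the low-count filter. Its mean density of 1.21 counts per kb was below that of both flanking genes on chromosome 5, the mesenchymal receptor Pdgfra (5.39 counts per kb) and the endothelial receptor Kdr (3.1 counts per kb). Pdgfra had 55, 39, 75 and 47 counts and Kdr 32, 27, 19 and 34. Kit shared none of its 50-base stretches with another gene.

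Flt3, the receptor for Flt3 ligand on multipotent and lymphoid-primed progenitors and on dendritic cell precursors, was the second densest member. Its counts were 56 and 37 with endogenous miR-125a and 242 and 33 with overexpression. The mean was 68.8 ± 23.8 CPM with endogenous and 187 ± 199 CPM (SD, n = 2) with overexpressed miR-125a. Overexpressed replicate 2 held the highest value and overexpressed replicate 3 the lowest, so the groups overlap. The fitted log2 fold was 1.72 ± 1.09 (SE), with an adjusted p of 0.859 by edgeR's quasi-likelihood F test. Without overexpressed replicate 2 it was -0.50. In overexpressed replicate 2 Flt3 was denser than 99.7% of receptor genes, against 89.5% in overexpressed replicate 3.

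Fgd5 encodes an exchange factor for the small GTPase Cdc42 and marks stem cells and endothelium. It was the most abundant of the 9 and the only one above the 95% line of its own library in all 4. Its counts were 116 and 100 with endogenous miR-125a and 363 and 99 with overexpression. The endogenous mean was 159 ± 26.1 CPM and the overexpressed mean 315 ± 250.3 CPM (SD, n = 2). The other 3 libraries lay between 138 and 177 CPM, below overexpressed replicate 2 at 492 CPM. The log2 fold was 1.26 ± 0.90 (SE, adjusted p = 0.891 by edgeR) and -0.11 without that library. Fgd5 exceeded Flt3 in density in each library. It is also the member whose 3' UTR holds the TCAGGGA match shown above.

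Robo4, a guidance receptor of endothelium that also holds stem cells in the marrow niche, ran the other way by value. Its counts were 10 and 79 with endogenous miR-125a and 14 and 11 with overexpression. The endogenous mean was 63.1 ± 67.6 CPM and the overexpressed mean 17.2 ± 2.56 CPM (SD, n = 2). Endogenous replicate 3 was high, at 111 CPM, and endogenous replicate 1, at 15.3 CPM, was the lowest of the 4. The log2 fold was -1.58 ± 0.88 (SE, adjusted p = 0.845 by edgeR), and 0.30 without endogenous replicate 3. In endogenous replicate 3 alone, Robo4 passed the 95% line of its own library. Its neighbour Robo3, 554 bases away on chromosome 9, had 10, 17, 17 and 16 counts and did not share the high value.

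Procr encodes the endothelial protein C receptor, whose surface staining enriches long-term stem cells. It had 1 count in each of the 4 libraries, 0.492 counts per kb. The sum corresponds to 1.42 CPM with a 95% exact Poisson interval of 0.387 to 3.63 CPM. Procr was denser than 11.1% of receptor genes, and no fold is given at this depth. None of its 50-base stretches is shared with another gene.

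The 3 transcription factors lay below the 95% line in every library. Mecom, a zinc finger factor needed for long-term stem cells, had 28 and 41 counts with endogenous miR-125a and 19 and 31 with overexpression. Its mean was 50.2 ± 10.4 CPM against 34.5 ± 12.4 CPM (SD, n = 2), and the groups overlap. The log2 fold was -0.33 ± 0.46 (SE, adjusted p = 0.968 by edgeR), and it kept this sign without any 1 library, from -0.62 to -0.10. Its SE was the smallest among the 5 members tested, and its density of 2.39 counts per kb was above 63% of receptor genes.

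Hlf, a basic leucine zipper factor whose expression tracks stem cells, had 8 and 16 counts against 5 and 10. That is 17.3 ± 7.24 CPM in the endogenous and 10.4 ± 5.08 CPM (SD, n = 2) in the overexpressed group. The group means differed by less than the 2 libraries of either group did, and Hlf did not pass the filter. Meis1, a homeodomain partner of Hox proteins, had 4 and 16 counts against 9 and 13, or 14.3 ± 11.6 CPM against 15.2 ± 4.21 CPM (SD, n = 2). By CPM, endogenous replicate 1 was the lowest and endogenous replicate 3 the highest, so the overexpressed values fell between them. The log2 fold of Meis1 was 0.29 ± 0.62 (SE, adjusted p = 0.978 by edgeR), -0.23 without endogenous replicate 1 and -0.01 when libraries were scaled by total counts alone.

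**Figure D2:**
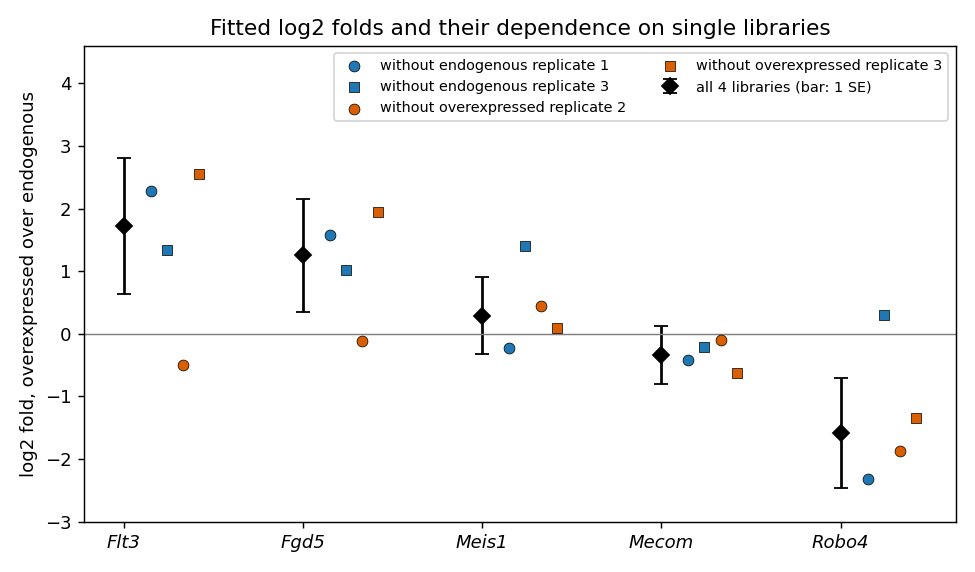
Log2 folds (overexpressed over endogenous, edgeR) of the 5 tested members, with 1 SE, and the folds refitted without each library in turn. Flt3 and Fgd5 fall below 0 without overexpressed replicate 2, Robo4 rises above 0 without endogenous replicate 3, Meis1 falls below 0 without endogenous replicate 1, and Mecom stays below 0.

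The main question of the design, whether these genes differed with miR-125a overexpression, was asked in 1 fit over all genes. Of the 9 members 5 passed the low-count filter, and 0 of these 5 had an adjusted p under 0.05 by edgeR's quasi-likelihood test. The background was 0% of 10808 genes by the same rule. No member had an unadjusted p under 0.05 either, against 5.24% of all tested genes. DESeq2 called 0 members and 1.4% of genes, the edgeR likelihood ratio test 0 members and 0.777%, and limma-voom 0 members and 0%. With no filter all 9 were tested, and 0 were called against 1.78% of 46089 genes. The 1 member with an unadjusted p under 0.05 there was Robo4 (0.0264, adjusted p = 0.6 by edgeR). The CPM ranges of the groups overlapped for all 5 tested members, whereas 35.2% of tested genes had ranges that did not. The median log2 fold of the 5 was 0.29 and that of all tested genes -0.01. With 2 libraries a group and SEs of 0.46 to 1.09 on the log2 scale, these values do not show that the groups were alike. In simulated counts with the spread estimated from these libraries, the same test called none of the changed genes at any size of change tried. Its 0 calls thus carry little information. The simulation drew each gene on its own, changed only more abundant genes and held no shift common to the genes of a library.

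The authors' deposited table, which comes from edgeR and gives folds as endogenous over overexpressed by the counts, has rows for 7 of the 9 genes. In the authors' deposited table Robo4 has the smallest p, 0.0401, with an FDR of 0.518. There Flt3 has a log2 fold of -1.72 (FDR 0.782) and Kit one of 0.806 (FDR 0.995). That deposited table gives 1 of the 7 members an unadjusted p under 0.05, against 8.64% of its genes. The authors' deposited table calls 0 of the 7 members at an FDR under 0.05, against 2.37% of its 17039 genes. Ly6a and Procr are the members with no row in it.

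Fgd5 and Flt3 made up most of the members' counts, and their share differed between libraries. The 9 genes together held 228 and 315 counts in endogenous 1 and 3, and 663 and 204 in overexpressed 2 and 3. Fgd5 and Flt3 supplied 75.4% and 43.5% of these in the endogenous libraries and 91.3% and 64.7% in the overexpressed libraries. The other 7 genes together gave 85.6 and 249.9 CPM in the endogenous and 78.7 and 100.6 CPM in the overexpressed libraries. By CPM, overexpressed 2 was thus the high library for Fgd5 and Flt3, and endogenous 3 for Robo4, Kit, Mecom, Hlf and Meis1. The fits also scaled the libraries by TMM factors, 1.22 for endogenous 3 and 0.833 for overexpressed 2. On that scale the lead of endogenous 3 is smaller and that of overexpressed 2 is larger. For Meis1, endogenous 3 and overexpressed 3 are then about level.

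For each tested member the 2 genes most like it in pattern were found, and none of these 10 is in the stem cell lists. Likeness was the Euclidean distance between centred log2 CPM over the 4 libraries, among genes of similar mean. The CPM used for it were also scaled by the TMM factors. Flt3 was nearest to the calmodulin gene Calm3 (100, 76, 477 and 64 counts, distance 0.14) and to Gramd2 (0.34). Fgd5 was nearest to Psd2 (53, 51, 203 and 48 counts, distance 0.2) and to the integrin subunit Itgb4 (0.23). Robo4 was nearest to Swi5 (14, 105, 19 and 19 counts, 0.25) and Iqgap1 (0.3). Mecom was nearest to Slc37a2 (0.022) and Snx30 (0.055), and Meis1 to Kcnj10 (0.088) and Uchl5 (0.097). For Mecom 1083 genes lay within 0.5 of its pattern, and for Fgd5 14 did. With only 4 libraries these distances describe shared high and low libraries and nothing more.

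**Figure D3:**
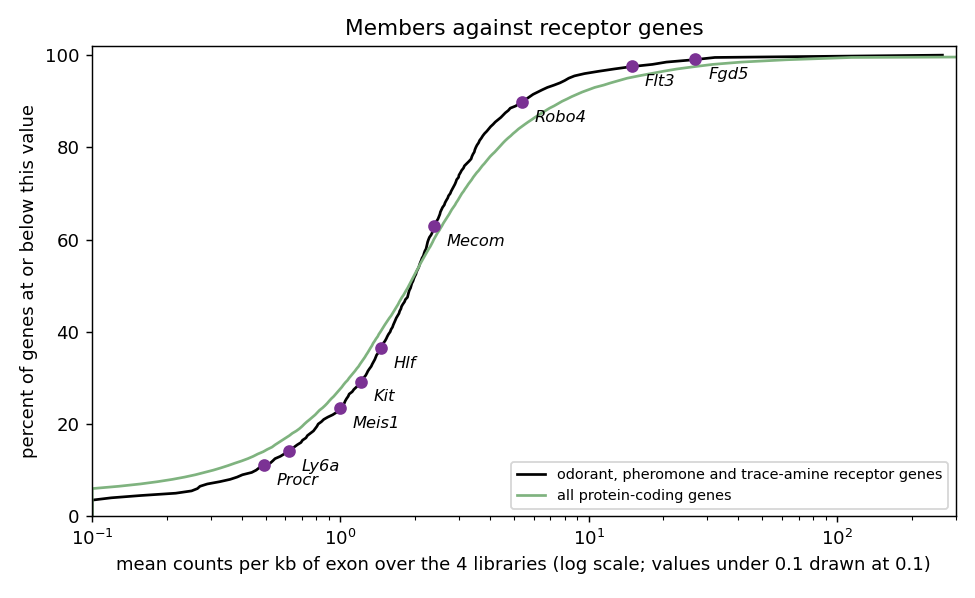
Share of genes at or below each mean density (counts per kb of exon, log axis) for the receptor genes and for all protein-coding genes, with the 9 members placed on the receptor curve. Fgd5 and Flt3 lie above 95% of receptor genes, and Hlf, Kit, Meis1, Ly6a and Procr below their median.

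Overlapping annotation affects Meis1 and Mecom, and the sources used here do not say whether strand was used in counting. Meis1 (chromosome 11, 18879817 to 19018985) shares 896 exon bases with Gm16140 on the opposite strand and 1029 with Gm37818 on its own strand. Gm16140 had 8, 12, 9 and 20 counts over its short exons, 10.9 counts per kb, against 0.997 for Meis1. If strand was not used, reads from the bases shared with Gm16140 could come from either gene. Reads from the bases shared with Gm37818 could come from either gene whether or not strand was used. In all, 17% of the 50-base stretches of Meis1 transcripts occur in another gene. Mecom (chromosome 3, 29951296 to 30548008) shares 81 exon bases with the antisense transcript Mecomos, which had 4, 5, 5 and 10 counts. Another 6 annotated transcripts, of the provisional class TEC, lie inside Mecom without touching its exons. Their mean densities ran from 0.969 (Gm38362) to 3.67 counts per kb (Gm38066), a range that holds Mecom's own 2.39. Inside Fgd5, Gm44095 and 4930466I24Rik had 1.29 and 2.1 counts per kb against 26.9 for Fgd5, and Gm26597, antisense at the start of Flt3, had 1 count in all.

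Other genes of stem cell biology were read from lists. Among 30 other stem cell genes, 16 were tested, 8 with higher and 8 with lower values, and 0 were called (median log2 fold -0.01). Of the 30, 4 were above the 95% line, and the median density was 2.05 counts per kb, against 1.93 for the receptor genes. The homeobox gene Hoxa9, a partner of Meis1, was the densest, with 148 and 154 counts with endogenous miR-125a and 12 and 183 with overexpression. Overexpressed replicate 2 was the low library there. Fli1, an ETS factor, had 74 and 46 against 70 and 28 counts. The progenitor surface marker Cd34 had 32 and 26 against 58 and 38 counts (log2 fold 0.85 ± 0.57 SE, adjusted p = 0.873 by edgeR). Its groups do not overlap in CPM, which was also so for 35.2% of all tested genes.

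Of 20 genes that signal with Kit and Flt3, 13 were tested, 6 with higher and 7 with lower values, and 0 were called. Lyn, a Src-family kinase that binds Kit, had 300 and 21 counts with endogenous miR-125a and 15 and 9 with overexpression (log2 fold -3.71 ± 1.40 SE, adjusted p = 0.845 by edgeR). Most of its counts came from endogenous replicate 1. The phosphatase Ptpn6, which damps Kit signals, had 7 and 35 against 137 and 6 counts, with overexpressed replicate 2 high. Of 13 partners of Robo4, Procr and Fgd5, 10 were tested, 5 in each direction, and 0 were called. Cdc42, the GTPase activated by Fgd5, had 51 and 34 against 33 and 17 counts. Of 17 partners and relatives of Meis1, Mecom and Hlf, 7 were tested and 0 called.

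Markers of cells that could share the gate or escape lineage depletion were read beside the members. A lower level of a transcript in such bulk RNA can mean fewer cells or less RNA per cell, and these cannot be told apart. Of 9 neutrophil genes, 7 were above the 95% line, while Ly6g (3.72 counts per kb) and Lcn2 (6.86) were below it. The 9 genes summed to 7178 and 10239 CPM in the endogenous and 15340 and 10956 CPM in the overexpressed libraries. Ltf alone made up most of this sum, with 4538 and 3735 against 8490 and 7413 counts. Mmp8 had 1 and 1048 against 16 and 7 counts, and S100a8 had 36 and 1130 against 739 and 205. Of the 9, 7 were tested, 5 with higher and 2 with lower values, and 0 were called. The azurophil granule gene Elane had 145 and 91 against 231 and 127 counts, and Ctsg 2 and 3 against 134 and 4. The 12 myeloid progenitor genes summed to 375 and 324 CPM against 846 and 335, so that overexpressed 2, the library with the most Flt3 and Fgd5, also held the most of these. Endogenous 3, the high library of Robo4 and Kit, held 3111 CPM of the 13 megakaryocyte and erythroid genes, against 168 to 358 in the other libraries. Of these 13, 4 were above the 95% line, carbonic anhydrase and haemoglobin genes such as Car2 (17, 1021, 9 and 111 counts). The platelet genes of the list were below it. Endogenous 3 also held 1411 CPM of the 8 plasmacytoid dendritic genes, against 140 to 284. Of these 8, 3 were above the line, and Siglech (20, 860, 50 and 11 counts) made up most of that 1411 CPM. The part of these cells in the members' values was not tested.

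Endothelial and mesenchymal genes bear on Fgd5, Robo4 and Procr, which endothelium also uses. The 14 endothelial genes summed to 700.2 and 518 CPM in the endogenous and 492 and 539 CPM in the overexpressed libraries, and 3 of 14 were above the 95% line. These were Stab1, Stab2 and Cldn5, while the defining vessel genes Cdh5, Pecam1 and Emcn were not. Their summed level was highest in endogenous 1, and Stab1 alone had 159, 143, 133 and 116 counts. The part of endothelial cells in the members' values was not tested. The 11 mesenchymal genes summed to 453 and 437 against 363 and 398 CPM, with 1 of 11 above the line. Of the 10 B cell genes 3 and of the 11 T and NK cell genes 2 were above the line, and the 13 multipotent and lymphoid progenitor genes had 1. No gene of the 14 lists was at 0 in all 4 libraries.

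**Figure D4:**
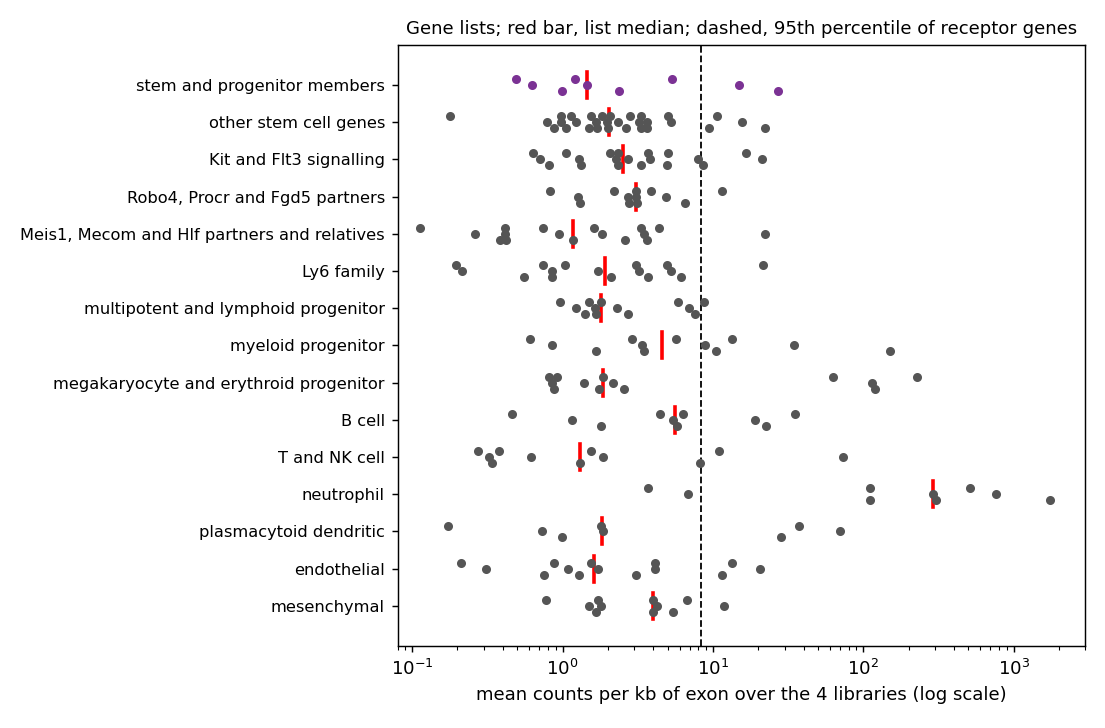
Mean counts per kb of exon (log axis) of every gene in the 9-gene set and in 14 other lists, with the list median in red and the 95th percentile of the receptor genes dashed. The stem and progenitor members have a median of 1.46 counts per kb, and the neutrophil list has the highest, 291.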

How the data were processed

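RNA from sorted marrow cells was sequenced with a low-input library kit, and 4 of the 6 labelled libraries, whose column headers match sample numbers in the labels, were analysed. The values the authors deposited for each gene are whole counts, not normalized. FastQC 0.11.8, STAR, edgeR 3.24.3 and the mm10 build are named, without roles, per the submitters' processing notes. The sources used here do not give the STAR version, the counter or the strand setting. The authors also deposited log2 fold changes, mean log2 CPM, likelihood ratios, p-values, FDR values and a signed score (the signed -log10 of the p-value), per the file headers. The direction of the folds was read from the counts.

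Counts were fitted with edgeR 4.0.16 in R 4.3.3 (filterByExpr, TMM, quasi-likelihood F test, Benjamini-Hochberg adjustment, threshold 0.05). DESeq2 1.42.0, limma 3.58.1 (voom), other scalings, no filter and leaving out each library were alternatives. Each SE was obtained by dividing the size of the log2 fold by the root of its F statistic. On simulated counts the fitted folds followed those put in, but none of the changed genes was called with each gene's spread as estimated from these libraries. Most were called with a spread that was smaller than for the typical gene and the same for all genes. Exon lengths come from GENCODE M21. The members, lists and settings were chosen with earlier results of these data known. All members were named. From each other list the 2 genes with the smallest p and the 2 densest were named, with genes overlapping a member and the 2 genes nearest in pattern (mean log2 CPM within 1). A gene that this rule names is not reported here. Flanking genes, Stab2, Cdh5, Pecam1, Emcn, Ly6g and Lcn2 were added after their values were seen. The microRNA sequence comes from RefSeq (GRCm38.p6) and 3' UTRs from GENCODE transcripts.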

Additional observations from a re-analysis of the deposited data

How the results depend on the processing

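Of 50 refits of the 5 tested members' log2 folds, 45 kept their sign. An adjusted p was given for 49 (DESeq2 gave none for Meis1), and 0 of these passed the threshold (lowest 0.469, Flt3 by DESeq2). The sign turned for Meis1 with library size alone (-0.015). Without 1 library at a time, the folds ran from -0.50 to 2.56 for Flt3, from -0.11 to 1.95 for Fgd5, from -2.33 to 0.30 for Robo4 and from -0.23 to 1.40 for Meis1, and the cause was not tested. In these fits a lone library was assumed to vary like those of the other group. Over all genes the count of calls was 0 by edgeR's quasi-likelihood test, 822 with no filter (327 higher, 495 lower), 151 by DESeq2 (57 higher, 94 lower) and 84 by the likelihood ratio test (26 higher, 58 lower). It was 0 with other scalings, by limma-voom and without any 1 library, and members called were 0 throughout. With the 99th percentile of receptor genes, 1 member (Fgd5) was above background, and without 1 library 1 to 2 were. Low counts limit Ly6a, Procr, Hlf, Kit and Meis1. No paired analysis was possible because the libraries with counts share only replicate number 3 between the groups.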
